A study of Homo sapiens with 14 samples.

Results

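The comparison described here is that of IMR90 cells after 96 h of 2',3'-dideoxycytidine (ddC) with IMR90 cells after 24 h of it, 3 RNA-seq libraries at each time, or 6 of the 14 libraries of the series. Members were taken from the library titles, which give the day of sampling and a replicate number. IMR90 is a widely used human fibroblast line, started from fetal lung. Both groups were kept in medium with 20 uM ddC, for 96 h (day 4) or for 24 h (day 1). The contrast is therefore one of duration, and both groups were treated. Untreated cells were not sampled at each of these times, so time in ddC cannot be told apart from time in culture. The other libraries, 3 each at 48 h and 72 h and 2 of untreated cells given water as vehicle, served to estimate the spread between libraries and to place the change in time. The labels put the untreated cells at 4 days and the design text puts them at 0 h, and the labels do not say whether the libraries came from separate cultures, so p-values measure the spread between these libraries. All libraries come from 1 cell line.

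ddC is a cytidine analog whose triphosphate is built into DNA by the mitochondrial DNA polymerase and, lacking a 3′ hydroxyl group, ends the growing strand. Cells that are held in it copy their mitochondrial genome poorly and lose it with time, and with it the genome's RNAs and the respiratory chain subunits they encode. Impaired mitochondria are known to signal to the nucleus through the integrated stress response, in which phosphorylated eIF2 favours translation of the transcription factor ATF4. Oxygen sensing through HIF prolyl hydroxylases, p53 and its target p21, and the actin and matrix programme of fibroblasts are further pathways that are often followed in such cells.

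The count table held 27142 genes, none carried on the mitochondrial chromosome, so RNA made from mitochondrial DNA was not analysed here. Library totals were 11706941 to 12147402 counts at 96 h and 9398703 to 11147273 at 24 h. After removal of genes with few counts, 13371 genes were tested. Expression is given in CPM, counts per 1000000 of the scaled library total. Summed CPM of 13 fibroblast markers was 41476 to 44956 in the 96 h libraries, against 35363 to 39716 in the 24 h libraries, most of it from COL1A1 and COL1A2. COL1A1, COL1A2, LUM and THY1 were called higher and PDGFRA lower (-0.26 ± 0.07, adjusted p = 0.0326), and VIM stood at 0.01 ± 0.04. The call of LUM ended without 96 h replicates 1 or 2 or 24 h replicates 1 or 2 (0.141). That of PDGFRA ended without 96 h replicates 1, 2 or 3 or 24 h replicate 2 or with only the 6 libraries compared (0.166), the adjusted p of 0.05 or more in brackets being the highest over those fits. CDH1, KRT14, SFTPC, SCGB1A1 and NKX2-1 of the epithelial markers, PECAM1 and CDH5 of the endothelial markers and CD3E, MS4A1, LYZ and HBA1 of the blood markers were at 0 in all 6 libraries. The 11 epithelial markers summed to 71.3 to 78.5 CPM at 96 h, against 52.2 to 60.2 CPM at 24 h, most of it from the keratin KRT18, which rose (0.47 ± 0.08, adjusted p = 0.00205). The 8 endothelial markers summed to 41.5 to 45.7 CPM at 96 h, against 42.2 to 48.8 CPM at 24 h, most of it from TEK. The 10 blood markers summed to 48.4 to 50.3 CPM at 96 h, against 49.1 to 54.2 CPM at 24 h, most of it from CD68. The part of these markers in the results below was not tested. The summed CPM of 4 nuclear long noncoding RNAs varied widely inside both groups, 235 to 538 CPM at 96 h and 156 to 948 CPM at 24 h. In bulk RNA of this kind, fewer cells of a type and less RNA per cell cannot be told apart.

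A further measure separated the groups. Reads on 35 genes lying opposite to 33 abundant genes, per 1000 reads of the abundant genes, came to 0.811 to 0.867 in the 96 h libraries, against 0.440 to 0.541 in the 24 h libraries. The value was 0.689 to 0.793 at 72 h, 0.722 in replicate 3 at 48 h, 0.528 and 0.550 in the other 48 h libraries, and 0.504 and 0.546 in untreated cells. Without the 3 opposite-strand genes that were themselves called, the value was 0.425 to 0.462 at 96 h and 0.350 to 0.460 at 24 h, with overlap. The part of this measure in the differences below cannot be told apart from time in ddC, because every 96 h library had a higher value than every 24 h library. With the measure as a covariate, 5 genes remained called (ACTA2, CITED2, RDH10 and IGFBP4 higher and FAM111B lower at 96 h), 427 of the 428 called genes kept their sign, their median change was 0.42 in size, against 0.36 without the covariate, and their median SE was 0.17, against 0.07. That covariate includes the 3 opposite-strand genes that were called in this same contrast. Without them, the measure as a covariate left 320 genes called, 290 of them among the 428. The comparison of 96 h with 72 h, whose ranges lie closer together, is given for several lists below. Every 96 h library also had a higher value than every 72 h library, so the measure cannot be told apart from time there either.

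The 96 h libraries differed from the 24 h libraries by many small changes, mostly rises. edgeR's quasi-likelihood test with Benjamini-Hochberg adjustment called 428 genes at an adjusted p under 0.05, which is 3.2% of those tested. Of these, 345 were higher at 96 h (2.58%) and 83 were lower (0.621%). The median size of the change among called genes was 0.36 on the log2 scale, and 14 genes were at least 2-fold higher and 2 at least 2-fold lower. Over all tested genes the median log2 fold change was -0.01. Libraries of the 2 groups did not overlap in 1443 genes with 96 h higher (10.8%) and in 1094 with 96 h lower (8.18%). All 345 higher and all 83 lower called genes were among them. The lack of overlap given below for called genes therefore describes them and adds nothing to their calls. Throughout, ± after a log2 fold change is its SE, with 3 libraries at each time. A call is said to end without a library, or with another tool, filter or choice of libraries, where that fit gave an adjusted p of 0.05 or more, and the highest such p stands in brackets. Without replicate 1 at 96 h 223 genes were called, without replicate 3 at 96 h 262 and without replicate 1 at 24 h 259, and without replicate 3 at 24 h 502, 153 of them lower. The chi-square per gene between replicates 2 and 3 at 24 h was 10.9, against 2.85 to 5.59 for the other pairs of the 2 groups. Of the 428 genes 180 were called in each of the 6 fits that left out 1 library.

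The change built up late. Among the 345 genes higher at 96 h, the group mean at 48 h had covered a median of 12.01% of the distance between the 24 h mean and the 96 h mean, and the mean at 72 h had covered 41.6%. The means of 188 of them stood in the order 24, 48, 72 and 96 h. The untreated mean lay at a median of -4.52% on the same scale. This is a median of signed values and does not show that untreated and 24 h means were close gene by gene. The 24 h mean was above the untreated mean in 194 of the 345 genes. Among the 83 lower genes the corresponding values were 8.25%, 36.1% and -26.4%, and 38 of them stood in order. The 96 h mean was the highest of the 5 group means in 338 of the 345 genes and the lowest in 82 of the 83. These genes were chosen by their 2 end points, so the positions describe them and test nothing. Fitted in the same model, 72 h against 24 h called 32 genes higher (0.239%) and 4 lower (0.0299%), and 96 h against 72 h called 61 higher (0.456%) and 8 lower (0.0598%). These comparisons share libraries with that of 96 h and 24 h.

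**Figure D1:**
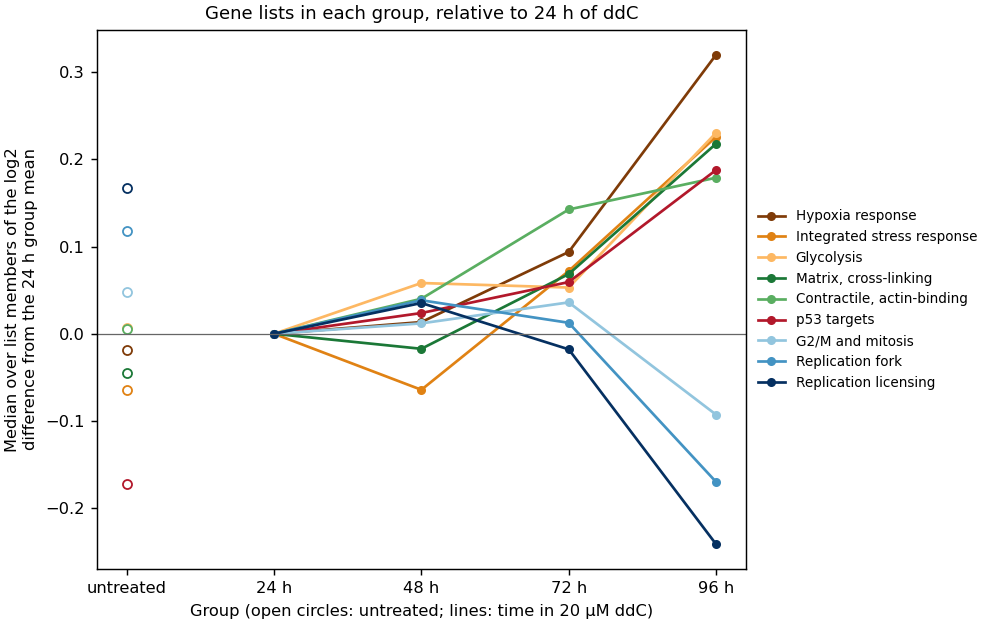
Median over the tested members of 9 gene lists of the log2 difference of each group mean from the 24 h mean, on the vertical axis, for untreated cells (open circles) and for 24, 48, 72 and 96 h of ddC (lines). At 96 h the lists lie between -0.24 (replication licensing) and 0.32 (hypoxia response), and at 48 h all 9 lie between -0.06 and 0.06.

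Genes of the response to low oxygen formed the list with the largest share of calls among those examined. HIF transcription factors, stabilised when prolyl hydroxylases are inactive, bind such genes at a core of the letters ACGTG. Of 37 hypoxia-response genes tested, 21 were higher at 96 h and the rest did not pass the test, with a list median of 0.32 and 34 members above 0. CA9 (chr9:35673915-35681154 on hg19), a carbonic anhydrase at the cell surface that is widely used as a marker of HIF activity, had 3.97, 4.44 and 5.21 CPM in the 96 h libraries, against 2.20, 1.53 and 2.29 CPM in the 24 h libraries. All 3 libraries at 96 h lay above all 3 at 24 h, with a log2 fold change of 1.18 ± 0.22 (adjusted p = 0.00286). SLC2A1, the glucose transporter GLUT1, had 331, 310.5 and 343 CPM in the 96 h libraries, against 232, 239 and 239 CPM in the 24 h libraries (0.47 ± 0.06, adjusted p = 5.98e-05), again without overlap. BNIP3, a mitophagy receptor of the outer mitochondrial membrane, had 108, 109 and 107 CPM in the 96 h libraries, against 77.5, 68.6 and 80.8 CPM in the 24 h libraries (0.52 ± 0.07, adjusted p = 9.69e-05). The 96 h libraries of BNIP3 stood close together, above all those at 24 h.

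NDRG1, a stress-responsive gene of the same list, had 144, 146 and 144 CPM in the 96 h libraries, against 105, 109 and 106 CPM in the 24 h libraries (0.44 ± 0.06, adjusted p = 5.46e-05). EPAS1, which encodes the HIF-2 alpha subunit itself, had 515, 504 and 522 CPM in the 96 h libraries, against 363, 380.0 and 406 CPM in the 24 h libraries (0.42 ± 0.06, adjusted p = 8.73e-05). In both, the groups were far apart compared with the spread inside them. FAM162A, a HIF target of the mitochondria, had 36.3, 38.7 and 34.1 CPM in the 96 h libraries, against 24.6, 20.5 and 24.4 CPM in the 24 h libraries (0.65 ± 0.09, adjusted p = 0.000181). AK4, a mitochondrial adenylate kinase, had 10.2, 11.8 and 11.3 CPM in the 96 h libraries, against 5.45, 7.31 and 6.44 CPM in the 24 h libraries (0.79 ± 0.14, adjusted p = 0.00129). EGLN1, the oxygen-sensing prolyl hydroxylase PHD2 and itself a HIF target, had 72.5, 64.3 and 63.4 CPM in the 96 h libraries, against 51.3, 51.7 and 51.6 CPM in the 24 h libraries (0.37 ± 0.06, adjusted p = 0.000976). CITED2, a HIF-induced protein that competes for the coactivator p300, had 211, 195 and 203 CPM in the 96 h libraries, against 149, 155 and 159.9 CPM in the 24 h libraries (0.39 ± 0.07, adjusted p = 0.000853). HIF1A (0.12 ± 0.05), VHL (0.08 ± 0.06), ARNT (-0.03 ± 0.07) and VEGFA (0.18 ± 0.15) were not called. Between 72 h and 96 h alone, 11 of the 37 genes were called higher, at a list median of 0.23, and between 24 h and 72 h 2 were.

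Glycolysis genes, several of which are also HIF targets, were called in 1 direction. Of 26 tested, 12 were higher, with a median of 0.23, and 3 of the 12 (SLC2A1, PDK1 and HK2) also stand in the hypoxia list. PGK1, an ATP-making enzyme of the pathway, had 817, 829 and 803 CPM in the 96 h libraries, against 658, 610.3 and 677 CPM in the 24 h libraries (0.33 ± 0.05, adjusted p = 0.00055). GAPDH, the preceding enzyme and a common reference gene, had 4584, 4463 and 4643 CPM in the 96 h libraries, against 3851, 3760.1 and 3983 CPM in the 24 h libraries (0.24 ± 0.05, adjusted p = 0.00907). ALDOA had 1249, 1169 and 1329 CPM in the 96 h libraries, against 996, 1039 and 967 CPM in the 24 h libraries (0.32 ± 0.06, adjusted p = 0.00274). For each of these enzymes every 96 h library was above every 24 h library. SLC16A3, the lactate exporter MCT4, had 459, 456 and 498 CPM in the 96 h libraries, against 331, 382 and 363 CPM in the 24 h libraries (0.39 ± 0.07, adjusted p = 0.00303). PDK1, the kinase that holds pyruvate out of the citric acid cycle, had 88.3, 98.98 and 91.1 CPM in the 96 h libraries, against 76.6, 72.03 and 78.3 CPM in the 24 h libraries (0.29 ± 0.06, adjusted p = 0.00713). Of the hypoxia calls, 17 of 21 were also made in each of the 6 fits that left out 1 library of the 2 groups, as were 9 of the 12 glycolysis calls. Between 72 h and 96 h, 3 of the 26 glycolysis genes were called higher (ALDOC, PGK1 and PDK1). The hypoxia calls of ADM ended without 96 h replicates 1 or 3 or 24 h replicate 3 or with only the 6 libraries compared (0.15), CA12 without 96 h replicates 1, 2 or 3 or 24 h replicate 2 (0.0721), HK2 without 96 h replicates 1 or 3 or 24 h replicates 2 or 3 or with only the 6 libraries compared (0.159) and MXI1 without 96 h replicates 1 or 2 or 24 h replicate 1 or with DESeq2 or only the 6 libraries compared (0.108).

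Promoter stretches are shown for 3 of these genes because the core letters bear on the list's name. They come from RefSeq on GRCh38.p14, where promoters of 300 bases (250 before and 50 after the start of transcription) could be matched for 10033 of the tested genes. The letters ACGTG, read on both strands, stood in 16 of the 26 promoters matched among the 30 hypoxia and glycolysis genes called. Over all matched promoters the share was 26.8%. Among called genes of other lists below, they stood in 4 of 10 replication and G1/S promoters, 7 of 21 stress response promoters and 3 of 14 contractile promoters. List members that were not called were not counted apart, here or for the sites searched below. Such shares therefore do not tell the change from the choice of list. Each match is a description of the letters and not of binding. The stretches are chr9:35673890-35673927 (+) for CA9, chr10:131982032-131982077 (−) for BNIP3 and chrX:78104026-78104089 (+) for PGK1, written 5′ to 3′ on the gene's strand with the core in capitals on either strand (CACGTG holds it on both).
CA9: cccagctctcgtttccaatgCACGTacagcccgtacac
BNIP3: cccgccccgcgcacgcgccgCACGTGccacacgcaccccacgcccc
PGK1: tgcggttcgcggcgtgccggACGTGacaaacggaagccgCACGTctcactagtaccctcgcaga

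Many genes of the integrated stress response rose. Of 56 tested genes of the response and of ATF4 targets, 25 were higher at 96 h and the others did not pass the test, with a median of 0.23 and 51 members above 0. STC2, a secreted glycoprotein and ATF4 target (chr5:172741726-172756506 on hg19), had 989, 947 and 989 CPM in the 96 h libraries, against 703, 713 and 688 CPM in the 24 h libraries (0.48 ± 0.05, adjusted p = 5.65e-06). The 24 h libraries lay close together and none came near the 96 h libraries. DDIT4, an inhibitor of mTORC1 signalling, had 123, 109.6 and 123 CPM in the 96 h libraries, against 72.8, 78.9 and 74.1 CPM in the 24 h libraries (0.65 ± 0.07, adjusted p = 6.88e-06). ATF4 itself had 312, 296 and 315 CPM in the 96 h libraries, against 254, 253 and 262 CPM in the 24 h libraries (0.26 ± 0.05, adjusted p = 0.00303). CHAC1, an enzyme that degrades glutathione, had 81.3, 81.5 and 90.05 CPM in the 96 h libraries, against 57.3, 66.7 and 64.5 CPM in the 24 h libraries (0.42 ± 0.07, adjusted p = 0.00083). All 3 genes were separated by group.

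SLC7A5, the light chain of a transporter of large neutral amino acids, had 544, 512 and 565 CPM in the 96 h libraries, against 376, 435 and 407 CPM in the 24 h libraries (0.41 ± 0.07, adjusted p = 0.000748). MTHFD2, the mitochondrial folate enzyme that is a frequent sign of respiratory chain defects, had 225, 247 and 238 CPM in the 96 h libraries, against 187, 177 and 209.5 CPM in the 24 h libraries (0.31 ± 0.07, adjusted p = 0.0087). VLDLR, a lipoprotein receptor induced by ATF4, had 45.3, 43.2 and 42.2 CPM in the 96 h libraries, against 32.1, 27.1 and 30.6 CPM in the 24 h libraries (0.54 ± 0.08, adjusted p = 0.000469). Groups did not overlap in any of these. The serine synthesis enzymes PHGDH (0.23 ± 0.05, adjusted p = 0.0122) and PSAT1 (0.25 ± 0.06, adjusted p = 0.0156) and asparagine synthetase ASNS (0.27 ± 0.06, adjusted p = 0.0113) rose by less. CBS, which starts transsulfuration, had 110.3, 106 and 118 CPM in the 96 h libraries, against 82.9, 91.2 and 79.96 CPM in the 24 h libraries (0.39 ± 0.07, adjusted p = 0.00083), but its reads cannot be assigned with certainty because the table also lists the near-identical copy CBSL. DDIT3, the transcription factor CHOP, had 21.4, 16.4 and 17.2 CPM in the 96 h libraries, against 16.97, 16.2 and 14.1 CPM in the 24 h libraries, with overlapping groups (0.22 ± 0.12, adjusted p = 0.423). Of 26 ER stress genes outside this list, XBP1 alone was called (0.27 ± 0.06, adjusted p = 0.014), and the list median was 0.06. The share called higher over all genes tested was 2.58%.

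The number of calls in the stress list leaned on single libraries, with 14 genes called without replicate 1 at 96 h, 15 without replicate 3 at 96 h and 15 without replicate 1 at 24 h. The 11 genes called in every such fit were ATF4, CBS, CHAC1, DDIT4, GDF15, MTHFD2, SLC1A4, SLC1A5, SLC7A5, STC2 and VLDLR. The call of ASNS ended without 96 h replicate 1 or 24 h replicate 1 (0.0663). That of PHGDH ended without 96 h replicates 1 or 3 or 24 h replicate 1 (0.0691). That of PSAT1 ended without 96 h replicates 1, 2 or 3 or 24 h replicate 2 (0.079). That of XBP1, outside the list, ended without 96 h replicates 2 or 3 or 24 h replicates 1 or 2 or with only the 6 libraries compared (0.0743). Between 72 h and 96 h 3 genes of the list were called higher, DDIT4 (0.55 ± 0.07, adjusted p = 0.000567) among them. The composite element that ATF4 binds, searched here as TGATGNAA on both strands, stood in 6 of the 21 matched promoters of called genes and in 1.61% of all matched promoters. It is shown in capitals, on either strand, for ASNS (chr7:97872449-97872496 (−)), CHAC1 (chr15:40953242-40953289 (+)) and MTHFD1L (chr6:150866337-150866384 (+)), since these stretches carry the letters behind that count. The call of MTHFD1L ended without 96 h replicates 1 or 2 or 24 h replicates 1, 2 or 3 or with no filter on low counts, only the 6 libraries compared or the 12 ddC libraries (0.182).
ASNS: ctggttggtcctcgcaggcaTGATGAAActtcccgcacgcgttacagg
CHAC1: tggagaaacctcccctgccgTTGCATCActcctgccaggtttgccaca
MTHFD1L: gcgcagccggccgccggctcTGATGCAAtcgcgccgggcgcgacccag

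**Figure D2:**
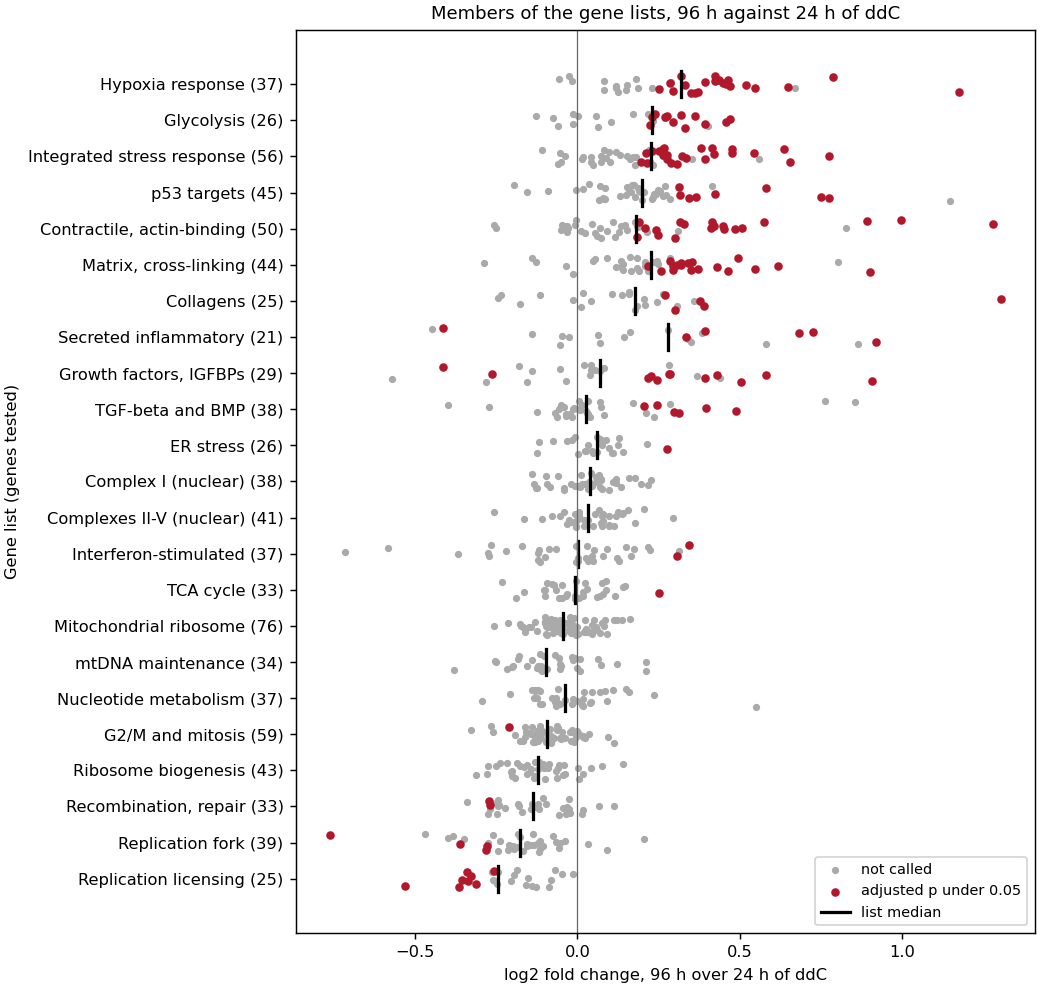
Log2 fold change of 96 h over 24 h of ddC (horizontal axis) for every tested member of 23 gene lists (1 line a list, number of genes tested in brackets). Red points passed an adjusted p of 0.05, grey points did not, and black bars are list medians, which run from 0.32 for the hypoxia response to -0.25 for replication licensing.

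Some targets of p53 rose and some genes of DNA replication fell. Of 45 p53 targets tested, 8 were called higher, the rest did not pass the test, the median was 0.20 and 41 lay above 0. The share called higher over all genes tested was 2.58%. CDKN1A, which encodes the cyclin-dependent kinase inhibitor p21 (chr6:36646487-36655116 on hg19), had 856, 877 and 902 CPM in the 96 h libraries, against 526, 601 and 634 CPM in the 24 h libraries. The lowest 96 h library stood above the highest 24 h library by more than the spread of either group, and the log2 fold change was 0.58 ± 0.07 (adjusted p = 2.90e-05). At 48 h and 72 h it averaged 643 ± 31.2 and 673 ± 64.2 CPM and in untreated cells 439 ± 14.5 CPM (SD), and 24 h against untreated cells gave 0.42 ± 0.08 (adjusted p = 0.378), which did not pass. GDF15, a secreted stress cytokine that is both a p53 and an ATF4 target, had 31.95, 42.6 and 42.3 CPM in the 96 h libraries, against 18.6, 24.01 and 25.3 CPM in the 24 h libraries (0.78 ± 0.12, adjusted p = 0.000748). SPATA18, which takes part in mitochondrial quality control, had 13.5, 11.4 and 13.03 CPM in the 96 h libraries, against 7.02, 7.49 and 7.94 CPM in the 24 h libraries (0.75 ± 0.12, adjusted p = 0.00083). GADD45A, a growth arrest gene, had 69.8, 68.8 and 62.8 CPM in the 96 h libraries, against 50.5, 52.4 and 53.4 CPM in the 24 h libraries (0.37 ± 0.07, adjusted p = 0.00452). Groups were apart in each.

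MDM2, the ubiquitin ligase that limits p53, had 120.1, 128 and 115 CPM in the 96 h libraries, against 109, 109.7 and 103 CPM in the 24 h libraries, without overlap, but missed the threshold (0.18 ± 0.06, adjusted p = 0.125). FAS (0.31 ± 0.08, adjusted p = 0.0342), BTG2 (0.42 ± 0.11, adjusted p = 0.0422) and TRIM22 (0.34 ± 0.08, adjusted p = 0.0255) were called higher. That of FAS, which lies opposite to the more abundant ACTA2, ended without 96 h replicates 1 or 2 or 24 h replicates 1 or 2 or with only the 6 libraries compared (0.158). That of BTG2 ended without 96 h replicates 1, 2 or 3 or 24 h replicates 1 or 3 or with DESeq2 or only the 6 libraries compared (0.216). That of TRIM22 ended without 96 h replicates 1 or 2 or 24 h replicates 1 or 3 (0.141). Without replicate 1 or replicate 2 at 96 h, 5 p53 targets were called in place of 8. From 72 h to 96 h, 3 of the 45 were called higher, with CDKN1A at 0.38 ± 0.07 (adjusted p = 0.0121) and GDF15 at 0.61 ± 0.12 (adjusted p = 0.0215).

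Genes that license replication origins, a step in which ORC and CDC6 load the MCM helicase on DNA, gave 8 called genes, all lower. All 25 tested genes of this list had a log2 fold change below 0, at a median of -0.25. ORC1, the largest subunit of the origin recognition complex (chr1:52838501-52870143 on hg19), had 17.2, 16.4 and 17.3 CPM in the 96 h libraries, against 27.1, 23.7 and 22.8 CPM in the 24 h libraries. No library of one group reached into the other, and the log2 fold change was -0.53 ± 0.09 (adjusted p = 0.000801). MCM4 had 130.1, 130.2 and 131 CPM in the 96 h libraries, against 171, 160.2 and 159.8 CPM in the 24 h libraries (-0.33 ± 0.05, adjusted p = 0.000475). MCM6 had 66.8, 73.3 and 70.4 CPM in the 96 h libraries, against 96.3, 85.1 and 89.7 CPM in the 24 h libraries (-0.36 ± 0.06, adjusted p = 0.000915) and MCM7 had 169, 179 and 178 CPM in the 96 h libraries, against 233, 226 and 207 CPM in the 24 h libraries (-0.34 ± 0.05, adjusted p = 0.000553). The 96 h libraries of these helicase subunits lay close together, more so than those at 24 h. MCM2 (-0.36 ± 0.07, adjusted p = 0.0063) fell too, and it, MCM4, MCM6, MCM7 and ORC1 were called in each fit without 1 library. The call of MCM3 ended without 96 h replicate 1 or 24 h replicate 1 (0.0668). That of MCM5 ended without 96 h replicates 1, 2 or 3 or 24 h replicates 1 or 2 or with only the 6 libraries compared (0.188). That of CDC6 ended without 96 h replicates 1, 2 or 3 or 24 h replicate 1 or with only the 6 libraries compared (0.184), and 5 of the 8 were called without replicate 1 at 96 h or replicate 1 at 24 h. From 72 h to 96 h, 4 of the 25 were called lower, among them ORC1 (-0.47 ± 0.09, adjusted p = 0.0126) and MCM4 (-0.24 ± 0.05, adjusted p = 0.0298).

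Of 39 polymerase and fork genes, 4 were lower, at a median of -0.18. FAM111B, a protease whose transcript peaks in S phase, had 15.4, 15.2 and 16.98 CPM in the 96 h libraries, against 28.2, 28.7 and 24.01 CPM in the 24 h libraries (-0.76 ± 0.09, adjusted p = 2.93e-05), with 25.97 ± 0.901 and 23.4 ± 1.88 CPM at 48 h and 72 h and 34.9 ± 0.391 CPM in untreated cells (SD). It ran down over the whole course and was called under every alternative tried, with -0.56 ± 0.09 between 72 h and 96 h (adjusted p = 0.00615). The flap endonuclease FEN1 (-0.28 ± 0.07, adjusted p = 0.0192) and the fork protection genes CLSPN (-0.36 ± 0.09, adjusted p = 0.0222) and TIMELESS (-0.28 ± 0.07, adjusted p = 0.0195) were called as well. FAM111B was the only fork gene called without replicate 1 at 96 h and without replicate 2 at 24 h, and 2 fork genes were called without replicate 3 at 96 h and without replicate 1 at 24 h. The call of FEN1 ended without 96 h replicates 1 or 2 or 24 h replicate 2 (0.0853). That of CLSPN ended without 96 h replicates 1 or 3 or 24 h replicates 1 or 2 (0.145). That of TIMELESS ended without 96 h replicates 1 or 3 or 24 h replicates 1 or 2 (0.118).

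Of 26 G1/S genes, 2 were called lower, at a median of -0.05. For this list and the mitotic and repair lists below, the share called lower over all genes tested was 0.621%. CCNE2, cyclin E2 of the G1/S transition, had 10.7, 12.6 and 11.01 CPM in the 96 h libraries, against 16.97, 16.3 and 16.5 CPM in the 24 h libraries (-0.54 ± 0.11, adjusted p = 0.00575), whereas E2F1 (-0.24 ± 0.08, adjusted p = 0.127) was not called. Of 59 mitotic genes, LMNB1 alone was called (-0.21 ± 0.05, adjusted p = 0.0332), at a list median of -0.09. The proliferation marker MKI67 had 300.1, 282 and 258 CPM in the 96 h libraries, against 353, 372 and 286 CPM in the 24 h libraries, with overlap (-0.27 ± 0.13, adjusted p = 0.383). Of 33 recombination and repair genes, FANCI (-0.27 ± 0.06, adjusted p = 0.0191) and MSH6 (-0.27 ± 0.06, adjusted p = 0.0089) were called. The call of LMNB1 ended without 96 h replicates 1 or 3 or 24 h replicates 1 or 3 or with only the 6 libraries compared (0.199). That of FANCI ended without 96 h replicates 1, 2 or 3 or 24 h replicate 1 (0.14). That of MSH6 ended without 96 h replicate 3 or 24 h replicate 1 (0.068). MYC, a growth regulator, was not called (0.21 ± 0.07, adjusted p = 0.104).

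E2F factors drive replication genes through sites read as TTTCCCGC or TTTGGCGC. These letters, on either strand, stood in 6 of the 10 matched promoters of the 14 replication and G1/S genes called, and in 3.77% of all matched promoters. Stretches are given for CDC25A (chr3:48188434-48188481 (−)), MCM3 (chr6:52284889-52284936 (−)), MCM6 (chr2:135876506-135876615 (−)) and MCM7 (chr7:100101557-100101604 (−)), with the site in capitals, to show that MCM6 carries a pair of sites and that MCM7 carries the site on the other strand. The call of CDC25A ended without 96 h replicates 1, 2 or 3 or 24 h replicate 1 or with DESeq2 or only the 6 libraries compared (0.12).
CDC25A: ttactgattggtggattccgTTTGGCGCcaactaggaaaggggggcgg
MCM3: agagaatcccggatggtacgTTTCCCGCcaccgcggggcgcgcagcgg
MCM6: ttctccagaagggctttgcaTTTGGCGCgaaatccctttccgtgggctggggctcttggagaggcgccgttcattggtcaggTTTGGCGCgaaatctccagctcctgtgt
MCM7: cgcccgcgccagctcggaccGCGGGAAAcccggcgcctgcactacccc

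**Figure D3:**
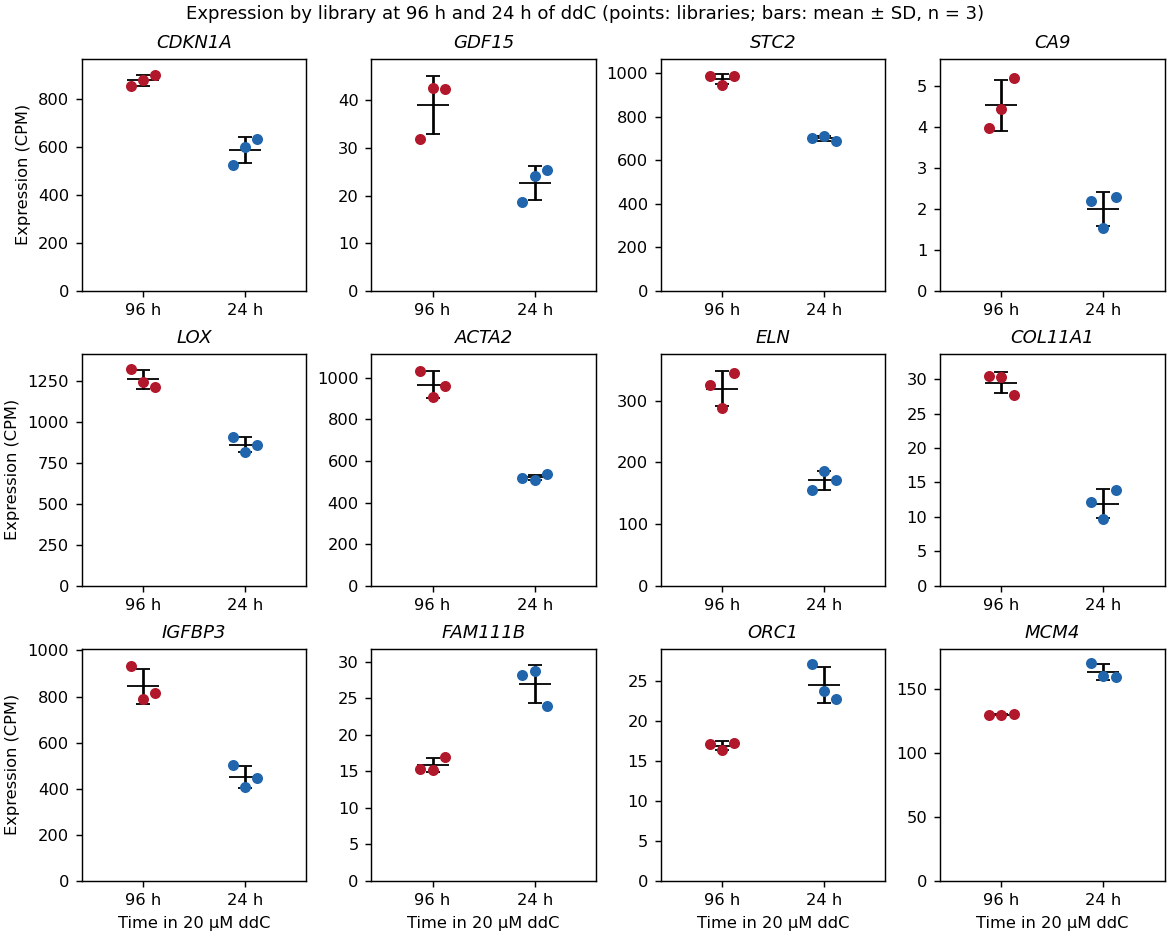
Expression in CPM (vertical axes, each from 0) of 12 genes in each library at 96 h (red, left) and at 24 h (blue, right) of 20 uM ddC, with group mean ± SD (n = 3). The 96 h libraries lie above the 24 h libraries for CDKN1A, GDF15, STC2, CA9, LOX, ACTA2, ELN, COL11A1 and IGFBP3 and below them for FAM111B, ORC1 and MCM4, with no overlap.

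Many contractile and actin-binding genes rose. In fibroblasts these genes answer to serum response factor with its actin-sensing cofactors, and high ACTA2 is the usual mark of a myofibroblast. Of 50 genes tested, 19 were higher, the rest did not pass the test, and the median was 0.18. ACTA2, smooth muscle alpha-actin (chr10:90694831-90751154 on hg19), had 1035, 906 and 959.6 CPM in the 96 h libraries, against 520.1, 508 and 535 CPM in the 24 h libraries. The 24 h libraries lay close together and far below the 96 h libraries, and the log2 fold change was 0.89 ± 0.07 (adjusted p = 5.09e-07). ACTA2 averaged 507 ± 16.5 CPM at 48 h, 789.9 ± 94.03 CPM at 72 h and 473 ± 20.7 CPM in untreated cells (SD). TAGLN, or SM22, had 2207, 1891 and 2122 CPM in the 96 h libraries, against 1482, 1354 and 1337 CPM in the 24 h libraries (0.58 ± 0.06, adjusted p = 9.78e-06). MYL9, a regulatory light chain of myosin, had 1201, 1074 and 1195 CPM in the 96 h libraries, against 834, 816 and 830.1 CPM in the 24 h libraries (0.48 ± 0.06, adjusted p = 6.29e-05). TPM1, a tropomyosin, had 1838, 1807 and 1793 CPM in the 96 h libraries, against 1361, 1309.9 and 1422 CPM in the 24 h libraries (0.41 ± 0.05, adjusted p = 1.24e-05). Each was separated by group.

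ACTG2, smooth muscle gamma-actin, had 619, 569 and 585 CPM in the 96 h libraries, against 438, 407 and 403 CPM in the 24 h libraries (0.51 ± 0.06, adjusted p = 3.21e-05). ANKRD1, a nuclear and sarcomeric protein that responds to stretch, had 17.96, 14.003 and 17.1 CPM in the 96 h libraries, against 10.4, 7.49 and 6.88 CPM in the 24 h libraries (1.00 ± 0.14, adjusted p = 0.000196). CNN1, or calponin, had 161, 142 and 163 CPM in the 96 h libraries, against 118, 118 and 112 CPM in the 24 h libraries (0.42 ± 0.08, adjusted p = 0.0024). Of the 19 called genes, ACTA2, ACTG2, ANKRD1, CNN1, CSRP1, CSRP2, FHL2, MYL9, SYNPO2L, TAGLN and TPM1 were called in each fit without 1 library, and 12 were called without replicate 1 at 96 h. Between 24 h and 72 h, 6 of the 50 genes were called higher, at a median of 0.14, and between 72 h and 96 h 1 was, at a median of 0.04. ACTA2 stood at 0.60 ± 0.07 in the earlier interval (adjusted p = 0.000407) and at 0.29 ± 0.07 in the later one (adjusted p = 0.0568), and the hypoxia list had 2 and 11 calls in the same intervals. Whether these intervals differ was not tested.

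Markers of smooth muscle and pericytes, 8 genes, summed to 861 to 966 CPM in the 96 h libraries, against 803 to 877 CPM in the 24 h libraries, with overlap. CNN1, LMOD1 and RGS5 of them were called higher, and none was at 0. CNN1 and LMOD1 are counted in the contractile list as well. MCAM and CSPG4, the largest parts of the sum, were not called. The call of LMOD1 ended without 96 h replicate 1 (0.103). That of RGS5 ended without 96 h replicates 1 or 3 or 24 h replicates 2 or 3 or with DESeq2, limma-voom, only the 6 libraries compared or the 12 ddC libraries (0.203). Their part in the contractile result was not tested. A CArG box, the site of serum response factor, stood in 3 of the 14 matched promoters of called contractile genes and in 1.07% of all matched promoters. The site is in capitals in the stretches of ACTG2 (chr2:73892878-73892964 (+)), CNN2 (chr19:1026499-1026548 (+)) and FHL2 (chr2:105438585-105438634 (−)), shown because ACTG2 has a pair of them. A TEAD site, searched as GGAATG on both strands, also stood in 3 of the 14 promoters, against 10.9% of all matched promoters. The call of CNN2 ended without 96 h replicates 1 or 3 or 24 h replicate 1 (0.0874).
ACTG2: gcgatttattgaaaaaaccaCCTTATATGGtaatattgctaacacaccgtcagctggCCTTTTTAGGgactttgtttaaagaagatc
CNN2: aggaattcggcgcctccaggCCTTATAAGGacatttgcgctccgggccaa
FHL2: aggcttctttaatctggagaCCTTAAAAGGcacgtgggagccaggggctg

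Extracellular matrix genes were also among those that rose. Of 44 genes for matrix proteins and the enzymes that modify and cross-link them, 18 were higher, the rest did not pass the test, and the median was 0.23. ELN, elastin (chr7:73442119-73484236 on hg19), had 325, 289 and 345 CPM in the 96 h libraries, against 156, 186 and 172 CPM in the 24 h libraries (0.90 ± 0.08, adjusted p = 1.08e-06). LOX, the lysyl oxidase that cross-links collagen and elastin and also a HIF target, had 1322, 1243 and 1213 CPM in the 96 h libraries, against 906, 817 and 861 CPM in the 24 h libraries (0.55 ± 0.05, adjusted p = 1.35e-06). THBS2, a matricellular thrombospondin, had 143, 126 and 126 CPM in the 96 h libraries, against 88.6, 87.7 and 81.5 CPM in the 24 h libraries (0.62 ± 0.06, adjusted p = 6.88e-06). In each the lowest 96 h library was well above the highest 24 h library. Of the collagen-modifying hydroxylases in the list 4 rose, with P4HA1 at 0.46 ± 0.06 (adjusted p = 0.000115), P4HA2 at 0.32 ± 0.05 (adjusted p = 0.000475), PLOD1 at 0.34 ± 0.05 (adjusted p = 0.000428) and PLOD2 at 0.50 ± 0.06 (adjusted p = 7.22e-05), and PLOD3 (0.09 ± 0.06), P4HA3 (0.28 ± 0.10) and P3H1 (0.14 ± 0.05) were not called. Elastic fibre components FBLN1 (0.37), FBLN2 (0.43), FBLN5 (0.35) and EFEMP2 (0.32) were called too. LOX, LOXL2, P4HA1 and P4HA2 are counted both here and among the hypoxia genes. Of the 18 calls, 13 were made in each fit without 1 library, and 9 of the 44 genes were called higher between 72 h and 96 h.

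Some collagen chains were called. Of 25 tested, 5 were called higher, against 2.58% of all genes tested, and the list median was 0.18. COL11A1, a chain of a minor fibrillar collagen (chr1:103342023-103574052 on hg19), had 30.4, 30.3 and 27.7 CPM in the 96 h libraries, against 12.2, 9.75 and 13.9 CPM in the 24 h libraries. It was among the 10 largest rises named here, 1.30 ± 0.12 (adjusted p = 1.35e-06), and most of it came after 72 h, when the group mean was 15.9 ± 1.47 CPM (SD), with 0.89 ± 0.12 from 72 h to 96 h (adjusted p = 0.00066). COL4A1, of basement membranes, had 3859.9, 3454 and 3628 CPM in the 96 h libraries, against 2746, 3017 and 2581 CPM in the 24 h libraries (0.39 ± 0.06, adjusted p = 0.000208). COL1A2 had 11557, 10587 and 11012 CPM in the 96 h libraries, against 9048, 9585 and 8874 CPM in the 24 h libraries (0.27 ± 0.05, adjusted p = 0.00174). The call of COL1A1 (0.30 ± 0.08, adjusted p = 0.0457) ended without 96 h replicates 1 or 3 or 24 h replicates 1 or 3 or with limma-voom, no filter on low counts, only the 6 libraries compared or the 12 ddC libraries (0.197). That of COL5A1 (0.38 ± 0.08, adjusted p = 0.0167) ended without 96 h replicates 1 or 3 or 24 h replicate 1 or with only the 6 libraries compared (0.118). Of the chains, 3 were called without replicate 1 at 96 h, replicate 3 at 96 h or replicate 1 at 24 h, and 10 without replicate 2 at 24 h. COL11A1 was the only chain called between 72 h and 96 h. Among 32 matrix proteases and their inhibitors, 3 were higher and 2 lower, against 2.58% and 0.621% of all genes tested. TIMP3, an inhibitor of metalloproteinases bound to matrix, had 568, 578 and 549.8 CPM in the 96 h libraries, against 425, 405 and 436 CPM in the 24 h libraries (0.42 ± 0.05, adjusted p = 2.34e-05). MMP3, or stromelysin, fell to 2.42, 2.09 and 2.19 CPM in the 96 h libraries, against 4.19, 4.69 and 5.03 CPM in the 24 h libraries (-1.06 ± 0.22, adjusted p = 0.00754).

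Of 29 growth factor, receptor and IGF-binding protein genes, 10 were higher and 2 lower, at a median of 0.07. IGFBP3, the main carrier of IGFs in blood and a p53 target (chr7:45951844-45960871 on hg19), had 932, 788 and 816 CPM in the 96 h libraries, against 503, 405 and 444 CPM in the 24 h libraries (0.91 ± 0.08, adjusted p = 9.46e-06). IGFBP4 had 2298, 2290.3 and 2387 CPM in the 96 h libraries, against 1464, 1534 and 1665 CPM in the 24 h libraries (0.58 ± 0.06, adjusted p = 9.78e-06). IGFBP2, IGFBP5, IGFBP6 and IGFBP7 were called higher, at 0.39, 0.23, 0.28 and 0.28, and each call ended without at least 1 library, that of IGFBP2 without 96 h replicates 1 or 3 or 24 h replicates 1 or 2 (0.0992), IGFBP5 without 96 h replicate 1 or 24 h replicate 1 (0.0921), IGFBP6 without 96 h replicates 2 or 3 or 24 h replicates 1 or 2 (0.148) and IGFBP7 without 96 h replicates 1, 2 or 3 or 24 h replicates 1 or 2 (0.184). IGF2 had 156, 158 and 164 CPM in the 96 h libraries, against 95.9, 119.6 and 122 CPM in the 24 h libraries (0.50 ± 0.08, adjusted p = 0.000469), a value it shares with the overlapping read-through gene INS-IGF2. HGF, the ligand of the receptor MET, fell to 53.8, 53.1 and 54.1 CPM in the 96 h libraries, against 69.3, 71.9 and 72.99 CPM in the 24 h libraries (-0.41 ± 0.07, adjusted p = 0.000615). Without replicate 1 at 24 h 3 genes of the list were called higher, and without replicate 1 at 96 h 4 were. Between 72 h and 96 h, IGF2 and IGFBP4 of the 29 were called higher.

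Of 38 TGF-beta and BMP genes, 6 were higher, all of them secreted proteins that are ligands or bind ligands: INHBA (0.40 ± 0.05, adjusted p = 4.58e-05), FST (0.21 ± 0.05, adjusted p = 0.0253), FSTL1 (0.31 ± 0.05, adjusted p = 0.00064), FSTL3 (0.30 ± 0.07, adjusted p = 0.0285), GREM1 (0.24 ± 0.05, adjusted p = 0.00696) and NOG (0.49 ± 0.13, adjusted p = 0.0391). INHBA, which forms activin A, had 516, 511 and 472 CPM in the 96 h libraries, against 389, 373 and 378 CPM in the 24 h libraries. The list median was 0.03, and the SMAD feedback gene SMAD7 stood at 0.03. The call of FST ended without 96 h replicates 1, 2 or 3 or 24 h replicates 1 or 2 or with only the 6 libraries compared (0.103). That of FSTL3 ended without 96 h replicates 1 or 3 or 24 h replicate 1 (0.164). That of NOG ended without 96 h replicates 1, 2 or 3 or 24 h replicates 1 or 2 (0.165), and 3 genes were called without replicate 1 or 3 at 96 h or replicate 1 at 24 h. Between 72 h and 96 h edgeR called none of the 38, with 6 higher and 1 lower at an unadjusted p under 0.05. Over all 13371 genes tested, 868 were higher and 676 lower at that threshold.

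Of 21 inflammatory genes, 5 were higher and 1 was lower. PTGS2, or COX-2, had 13.6, 13.05 and 13.4 CPM in the 96 h libraries, against 8.59, 6.50 and 6.18 CPM in the 24 h libraries (0.92 ± 0.14, adjusted p = 0.000475). ICAM1, a leukocyte adhesion molecule, had 33.4, 28.7 and 30.3 CPM in the 96 h libraries, against 17.3, 19.6 and 20.6 CPM in the 24 h libraries (0.68 ± 0.10, adjusted p = 0.000392). IL11, a fibrogenic cytokine, had 93.6, 95.6 and 103 CPM in the 96 h libraries, against 74.1, 74.7 and 73.3 CPM in the 24 h libraries (0.39 ± 0.07, adjusted p = 0.000853). The groups were separate in all 3 genes. CXCL12 (0.33 ± 0.07, adjusted p = 0.00795) was also called. IL6 had 5.27, 5.57 and 4.12 CPM in the 96 h libraries, against 2.93, 3.43 and 2.65 CPM in the 24 h libraries (0.73 ± 0.19, adjusted p = 0.0381), and its call ended without 96 h replicates 1 or 2 or 24 h replicates 1 or 3 or with DESeq2, limma-voom or only the 6 libraries compared (0.143). HGF, counted here as well, was the one that fell. ICAM1 was the only 1 of the 21 called between 72 h and 96 h. Of 37 interferon-stimulated genes, HLA-B (0.31 ± 0.07, adjusted p = 0.0182) and TRIM22 were called higher, at a median of 0.00, against 2.58% of all genes tested. TRIM22 is also counted among the p53 targets. The call of HLA-B ended without 96 h replicates 1 or 3 or 24 h replicates 1 or 2 (0.1).

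Nuclear genes for the respiratory chain and for mitochondrial DNA, ribosomes and chaperones gave no calls in the lists examined. Some other nuclear genes for mitochondrial proteins, such as MTHFD2 and AK4 above, were called. None of 38 complex I subunits, 41 subunits of complexes II to V, 34 genes of mitochondrial DNA maintenance and transcription, 76 mitochondrial ribosomal proteins or 21 mitochondrial chaperones and proteases was called by edgeR's quasi-likelihood test, DESeq2 or limma-voom. At an unadjusted p under 0.05, edgeR gave 2 higher in complex I, 3 higher and 2 lower in complexes II to V, 2 higher and 3 lower in maintenance, 1 higher and 3 lower in ribosomal proteins, and 3 higher and 1 lower in chaperones. Over all 13371 genes tested, edgeR gave 1187 higher and 849 lower at that threshold. List medians lay between -0.10 (maintenance) and 0.04 (complex I). TFAM, which packages mitochondrial DNA, had 39.04, 42.4 and 36.7 CPM in the 96 h libraries, against 47.5, 38.99 and 45.5 CPM in the 24 h libraries, with overlap (-0.16 ± 0.08, adjusted p = 0.385). POLG, the polymerase that takes up ddC triphosphate, had 55.5, 47.3 and 57.01 CPM in the 96 h libraries, against 55.9, 62.2 and 47.7 CPM in the 24 h libraries, with overlap (-0.05 ± 0.12, adjusted p = 0.884). A missed threshold does not show that these genes were level.

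The remaining lists gave no more than 2 calls each. Over all genes tested 3.2% were called, 2.58% higher and 0.621% lower, and the counts below were not tested against those shares. IDH2 of 33 citric acid cycle genes was higher (0.25 ± 0.06), CPT1A of 28 fatty acid genes was lower (-0.27 ± 0.06), and GABARAPL1 of 35 lysosome and autophagy genes was higher (0.26 ± 0.07). The call of IDH2 ended without 96 h replicates 1, 2 or 3 or 24 h replicates 1 or 2 (0.136). That of CPT1A ended without 96 h replicate 1 or 24 h replicate 2 (0.103). That of GABARAPL1 ended without 96 h replicates 1 or 2 or 24 h replicates 1 or 2 (0.163). HSPH1 of 20 heat shock genes fell (-0.30 ± 0.06, adjusted p = 0.00277), as did HSP90AB1 (-0.18 ± 0.05, adjusted p = 0.04), whose call ended without 96 h replicates 1, 2 or 3 or 24 h replicate 1 or with no filter on low counts, only the 6 libraries compared or the 12 ddC libraries (0.235). AKR1C1, an NRF2 target and ketosteroid reductase, fell to 6.22, 6.78 and 6.31 CPM in the 96 h libraries, against 9.43, 10.1 and 11.03 CPM in the 24 h libraries (-0.67 ± 0.14, adjusted p = 0.00634), alone among 30 NRF2 genes. DUSP1, a MAP kinase phosphatase, rose (0.35 ± 0.06, adjusted p = 0.00137) among 26 immediate early genes. WNT5A rose (0.29 ± 0.05, adjusted p = 0.00072) and the Notch target HEY1 fell (-0.70 ± 0.15, adjusted p = 0.00979), the call of HEY1 ending without 96 h replicates 1 or 2 (0.062). Ribosome biogenesis had a median of -0.12 with 37 of 43 genes below 0 and no call by edgeR, 12 genes lower at an unadjusted p under 0.05 and 1 lower by DESeq2. Nucleotide metabolism (37 genes) and linker and variant histones (22) had no call by edgeR, DESeq2 or limma-voom. At an unadjusted p under 0.05 edgeR gave 1 higher and 1 lower in the former and 5 lower in the latter. Over all 13371 genes tested, it gave 1187 higher and 849 lower at that threshold.

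The largest rises among genes of at least 2 CPM on average were at low expression. SNX22 had 4.75, 4.17 and 4.54 CPM in the 96 h libraries, against 0.314, 0.271 and 0 CPM in the 24 h libraries (3, 3 and 0 reads in the 24 h libraries), and VIM-AS1 had 12.01, 11.8 and 15.1 CPM in the 96 h libraries, against 5.45, 3.07 and 2.91 CPM in the 24 h libraries (1.79 ± 0.28, adjusted p = 0.00212). Both lie on the strand opposite to a far more abundant gene. SNX22 reads were 0.628, 0.545 and 0.590% of those of PPIB in the 96 h libraries, against 0.0478, 0.0432 and 0% in the 24 h libraries. VIM-AS1 reads were 0.232, 0.231 and 0.285% of those of VIM at 96 h, against 0.106, 0.0605 and 0.0559% at 24 h. DESeq2 gave SNX22 no adjusted p. Of 302 tested genes opposite to one at least 10 times as abundant, 6 were higher (FAS, VIM-AS1, NPB, MIF-AS1, ACTA2-AS1 and SNX22), or 1.99%, against 2.58% of all genes tested. FAS went the other way as a share of its opposite gene, at 6.64, 7.90 and 6.44% of ACTA2 reads at 96 h, against 10.8, 9.16 and 11.2% at 24 h. The call of NPB ended without 24 h replicates 1, 2 or 3 (0.162). That of MIF-AS1 ended without 96 h replicates 1, 2 or 3 or 24 h replicates 2 or 3 or with no filter on low counts (0.131). That of ACTA2-AS1 ended without 96 h replicate 1 or 24 h replicates 2 or 3 (0.0925). For such pairs, reads of the 2 strands cannot be told apart with certainty where the counting is not stated to use strand.

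**Figure D4:**
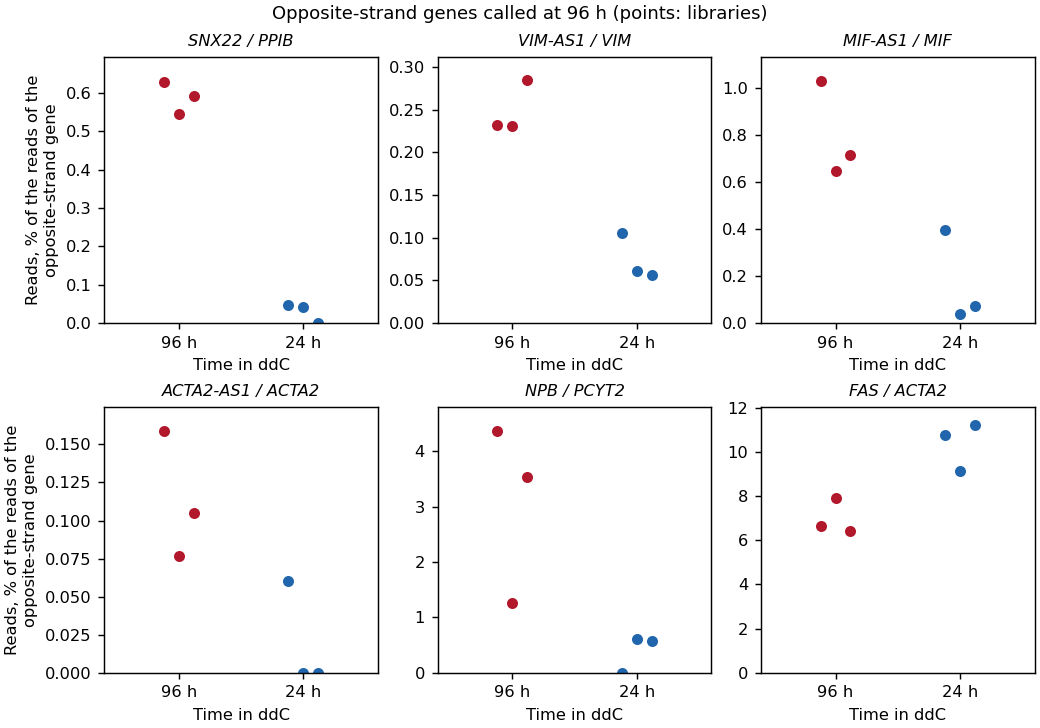
Reads of the 6 called genes that lie opposite to a gene at least 10 times as abundant, as a percent of that gene's reads (vertical axes, from 0), in each library at 96 h (red, left) and 24 h (blue, right) of ddC. SNX22 reaches 0.545% or more of PPIB in the 96 h libraries and 0.0478% or less in the 24 h libraries, VIM-AS1, MIF-AS1, ACTA2-AS1 and NPB show the same order, and FAS shows the opposite one.

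After these came COL11A1, SYNPO2L, EXTL1, CA9, SPINT2, BHLHE41, ANKRD1 and NRXN3. SYNPO2L, an actin-associated protein of muscle, had 3.54, 3.13 and 3.87 CPM in the 96 h libraries, against 1.68, 1.08 and 1.59 CPM in the 24 h libraries (1.28 ± 0.26, adjusted p = 0.00527). BHLHE41, a clock-linked repressor induced by hypoxia, had 7.34, 5.65 and 5.13 CPM in the 96 h libraries, against 2.93, 3.25 and 2.82 CPM in the 24 h libraries (1.00 ± 0.19, adjusted p = 0.00344). NRXN3, a neurexin, had 18.9, 15.6 and 15.97 CPM in the 96 h libraries, against 9.53, 8.76 and 8.30 CPM in the 24 h libraries (0.93 ± 0.13, adjusted p = 0.000206). The call of EXTL1 (1.26 ± 0.28) ended without 96 h replicates 1 or 3 or 24 h replicates 2 or 3 (0.0817). That of SPINT2 (1.16 ± 0.29) ended without 96 h replicates 1 or 3 or 24 h replicates 1, 2 or 3 (0.16), and DESeq2 gave neither gene an adjusted p. The largest falls were those of MMP3, FAM111B, HEY1, ADGRG1, AKR1C1, TRPA1, NECTIN1, ITGB3BP, CCNE2 and IL6R. TRPA1, a cation channel that senses irritants, had 30.9, 37.2 and 35.99 CPM in the 96 h libraries, against 50.7, 54.8 and 53.9 CPM in the 24 h libraries (-0.62 ± 0.08, adjusted p = 0.000132). The call of ADGRG1 (-0.67 ± 0.16) ended without 96 h replicates 1 or 3 or 24 h replicate 2 (0.101). That of NECTIN1 (-0.55 ± 0.13) ended without 96 h replicates 2 or 3 or 24 h replicate 2 (0.0931). That of ITGB3BP (-0.55 ± 0.11) ended without 96 h replicate 1 (0.0613). That of IL6R (-0.53 ± 0.14) ended without 96 h replicates 1 or 2 or 24 h replicates 1 or 2 or with DESeq2, limma-voom, only the 6 libraries compared or the 12 ddC libraries (0.181).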

How the data were processed

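Polyadenylated RNA was sequenced from strand-specific libraries, as the labels' protocols state. Per the submitters' processing notes the authors used STAR 2.5.3a, hg19 and HOMER, and strand setting and filters are not given in the sources used here. In the deposited table the authors give unnormalised read counts for each gene. Every column was matched to its sample by title. Counts were tested with edgeR 4.0.16 (R 4.3.3): TMM scaling, filterByExpr (minimum count 10, minimum total 15), a robust quasi-likelihood model with the 5 groups of all 14 libraries as terms, contrast 96 h minus 24 h, two-sided, Benjamini-Hochberg adjustment over 13371 genes, called at under 0.05. The SE is the log2 fold change divided by the square root of F. CPM uses TMM-scaled totals, and group means for time courses used log2(CPM + 0.5). The fit was tested on simulated counts with 50 genes changed at each size. It recovered 38% of those changed 1.25-fold, 70% at 1.5-fold, 88% at 2-fold and 98% at 4-fold. Of 13171 unchanged genes it called 8. Members, gene lists and tests were chosen with earlier results of these data known. Genes named were the 10 largest rises and falls among called genes of at least 1 in average log2 CPM without overlap, up to 3 called members of each list with the smallest p, and 13 fixed genes. Others were named after their values were seen. Alternatives used median-ratio size factors, DESeq2 1.42.0, limma-voom (limma 3.58.1), no filter, a replicate block, fewer groups and leaving out each of the 6 libraries. Those added after seeing the data were 3 covariates (nuclear RNA, and the opposite-strand measure with and without called genes) and a count without genes opposite to one at least 10 times as abundant. Counting error only is covered by the depth. Gene coordinates are those of the table (hg19), and promoters are RefSeq on GRCh38.p14.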

Additional observations from a re-analysis of the deposited data

How the results depend on the processing

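With other normalization, test, filter or samples in the fit the number of called genes ranged from 306 to 478, against the 428 reported, and genes lower at 96 h numbered 49 in place of 83 with only the 6 libraries compared. Leaving out 1 library gave 223 to 502 called genes, 189 to 349 higher and 34 to 153 lower. The replicate block gave 478 calls, 412 of them among the 428. Same-numbered deviations correlated at 0.13, -0.35 and -0.00 for replicates 1, 2 and 3. No 96 h library correlated best with the 24 h library of its own number. Deviations from a mean of 3 libraries are not independent, so these values cannot settle whether the numbers pair the libraries. The nuclear RNA score as a covariate gave 1091 calls, 717 higher and 374 lower, with all 428 among them. The opposite-strand measure as a covariate gave 5 calls, 4 higher and 1 lower, with a median SE of 0.17, and without called genes it gave 320, 260 and 60. MIF-AS1, called, turned to -0.23 with the opposite-strand measure. Of genes not called, VEGFA turned to -0.13 with it, SMAD7 ran from -0.0222 to 0.0872 over the fits without 1 library, DDIT3 turned to -0.0057 with that measure, and POLG to 0.0101 with the nuclear RNA score and to -0.15 to 0.0444 over the fits without 1 library. The cause was not tested. Called genes had a median GC content of 50.3% (higher) and 46.4% (lower), against 48.0% over all tested genes, and the part of GC content was not tested. Depth, at 9398703 to 12147402 counts a library, limits genes of few reads such as SNX22, to which DESeq2 gave no adjusted p.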

Other observations

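Several called genes outside the lists, chosen after their values were seen, encode proteins of the cell surface and matrix. The extracellular sulfatase SULF1, which trims heparan sulfate, had 169, 149.9 and 148 CPM in the 96 h libraries, against 95.2, 87.0 and 97.3 CPM in the 24 h libraries (0.74 ± 0.07, adjusted p = 1.18e-06). HAS2, a hyaluronan synthase, had 102, 95.7 and 91.3 CPM in the 96 h libraries, against 63.8, 58.7 and 62.1 CPM in the 24 h libraries (0.65 ± 0.08, adjusted p = 1.94e-05). CEMIP, which takes part in hyaluronan breakdown, had 138, 108 and 113 CPM in the 96 h libraries, against 74.6, 76.8 and 60.3 CPM in the 24 h libraries (0.77 ± 0.10, adjusted p = 0.000223). TGM2, a transglutaminase that cross-links proteins, had 317, 306 and 323 CPM in the 96 h libraries, against 220.1, 236 and 220.3 CPM in the 24 h libraries (0.48 ± 0.05, adjusted p = 1.21e-05). In all 4 genes every 96 h library was above every 24 h library. RDH10, an enzyme of retinoic acid synthesis, had 76.5, 65.4 and 64.7 CPM in the 96 h libraries, against 37.9, 36.0 and 39.8 CPM in the 24 h libraries (0.86 ± 0.08, adjusted p = 1.35e-06). HHIP, an inhibitor of hedgehog ligands, had 25.4, 22.6 and 21.4 CPM in the 96 h libraries, against 11.9, 11.8 and 13.1 CPM in the 24 h libraries (0.91 ± 0.11, adjusted p = 3.12e-05), and OXTR, the oxytocin receptor, had 60.2, 51.1 and 55.2 CPM in the 96 h libraries, against 36.8, 31.4 and 37.5 CPM in the 24 h libraries (0.66 ± 0.08, adjusted p = 4.16e-05). ERRFI1, a feedback inhibitor of EGFR signalling, had 223, 207 and 205 CPM in the 96 h libraries, against 139, 124 and 139 CPM in the 24 h libraries (0.66 ± 0.06, adjusted p = 1.35e-06).

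Among the falls outside the lists, TXNIP, an inhibitor of thioredoxin that follows cellular glucose, had 109, 112 and 105 CPM in the 96 h libraries, against 145, 133 and 143 CPM in the 24 h libraries (-0.37 ± 0.07, adjusted p = 0.00181). KCNMA1, a calcium-activated potassium channel, had 51.6, 56.3 and 53.3 CPM in the 96 h libraries, against 71.5, 71.2 and 78.6 CPM in the 24 h libraries (-0.46 ± 0.07, adjusted p = 0.000304). EZH2, the histone methyltransferase of Polycomb repressive complexes, had 41.2, 41.7 and 43.2 CPM in the 96 h libraries, against 56.5, 53.9 and 53.3 CPM in the 24 h libraries (-0.37 ± 0.08, adjusted p = 0.00757), and NASP, a histone chaperone, had 152, 157 and 150.2 CPM in the 96 h libraries, against 199.9, 182 and 174 CPM in the 24 h libraries (-0.28 ± 0.06, adjusted p = 0.00846). The groups did not overlap in these genes. The call of EZH2 ended without 24 h replicate 1 (0.0507) and that of NASP without 96 h replicates 1 or 3 or 24 h replicate 1 (0.0795), the highest adjusted p of those fits standing in brackets. With the opposite-strand measure as a covariate, RDH10 was the only one of these 12 genes called, while the log2 fold changes of the 8 genes higher at 96 h ran from 0.50 (TGM2) to 1.16 (HHIP) and those of the 4 lower genes from -0.48 (EZH2) to -0.35 (TXNIP).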
